A study of Rattus norvegicus with 16 samples.

Results

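Clock output factors and the clock-controlled protease Usp2 were followed in the liver of male Lewis rats at 5 ages. The 7 genes were Dbp, Tef, Nfil3, Bhlhe40, Bhlhe41, Usp2 and Wee1. They were taken by name, with Bhlhb2 and Bhlhb3 as the older names of Bhlhe40 and Bhlhe41, from the gene name given for each probe of the array. That gave 7 of 35042 gene names and 9 of 41012 probes, 1 probe for each gene except Wee1, which had 3.

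Messenger RNA was measured on 16 one-colour arrays, 1 per sample, with 3 samples each at 3, 9, 12 and 18 months and 4 at 24 months. The rats were specific-pathogen-free and lived in 12 h of light and 12 h of dark, ate and drank freely, and had no treatment or genetic change named in the labels, so the groups differ in stated age alone. Livers were frozen in liquid nitrogen. The hour at which livers were taken is not stated, nor are separate animals named for the samples, so hour and age cannot be told apart in any value below, and the p-values measure the spread between these samples, which may be technical. The labelling kit named is a microRNA kit although the array measures messenger RNA, and this was not resolved.

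The circadian clock of the liver is a loop in which BMAL1 with CLOCK or NPAS2 drives the Per, Cry and Nr1d genes through E-box sequences, and the products of those genes repress it in turn. Clock output factors pass this rhythm on to other genes: DBP and TEF activate promoters through D-box sequences, NFIL3 represses through the same sequences, and BHLHE40 and BHLHE41 bind E-boxes as repressors. In rodent liver the RNA of Dbp swings over the day more widely than that of most genes. USP2 removes ubiquitin from other proteins, and WEE1 is a kinase that holds back entry into mitosis and whose gene is also driven by the clock.

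The values of each gene rest on a single 60-base oligonucleotide, and these oligonucleotides are given below because every level in the text is the brightness of one of them. Coordinates are those of the array files, on build rn4, and the sequences were taken from the same files. None is set in capitals. For Wee1 the probe with the highest mean of the 3 is shown.
Dbp probe, chr1:96178020-96178079: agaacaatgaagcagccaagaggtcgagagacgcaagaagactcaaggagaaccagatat
Tef probe, chr7:120176730-120176789: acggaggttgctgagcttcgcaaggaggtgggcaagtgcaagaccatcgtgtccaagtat
Nfil3 probe, chr17:18107192-18107251: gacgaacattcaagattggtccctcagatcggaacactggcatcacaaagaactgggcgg
Bhlhe40 probe, chr4:144145007-144145066: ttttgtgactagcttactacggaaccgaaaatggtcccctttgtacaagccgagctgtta
Bhlhe41 probe, chr4_random:1955459-1955518: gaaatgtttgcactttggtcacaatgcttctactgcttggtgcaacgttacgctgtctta
Usp2 probe, chr8:47075059-47075118: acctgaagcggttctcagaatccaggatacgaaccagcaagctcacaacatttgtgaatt
Wee1 probe, chr1:167787742-167787801: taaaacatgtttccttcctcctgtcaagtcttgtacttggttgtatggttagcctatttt

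RefSeq promoter windows of build GRCr8, from 250 bases before to 50 bases after the start of transcription, were matched by symbol for 6 of the 7 genes. The start is that of the window used. The windows of Tef and Usp2 lie wholly inside their genes (chr7:115197180-115221930 and chr8:53308264-53336800), so theirs is not the most upstream start. The Bhlhe41 gene (chr4:180565003-180569415, minus strand) also reaches upstream of the start of its window. The E-box of that window lies inside the annotated gene. Each was searched on both strands for the E-box CACGTG, the D-box forms TTATGTAA and TTACGTAA, and AGGTCA, the core of the sites bound by REV-ERB and ROR proteins. The E-box was present in the windows of Tef, Bhlhe40 and Bhlhe41, beginning 198, 220 and 48 bases before the start. Among all 33469 windows, 6.42% held it. AGGTCA was present in the Usp2 window, beginning 70 bases before the start, and in 16.2% of all windows. No D-box form was found in the 6 windows; 0.893% of all windows held TTATGTAA and 0.12% held TTACGTAA. The windows of Dbp and Nfil3 held none of these letters. The motifs searched do not overlap one another. The 4 windows with a match are printed 5′ to 3′ on the strand of the gene, with the match in capitals.
Tef promoter window, chr7:115206577-115206876, plus strand: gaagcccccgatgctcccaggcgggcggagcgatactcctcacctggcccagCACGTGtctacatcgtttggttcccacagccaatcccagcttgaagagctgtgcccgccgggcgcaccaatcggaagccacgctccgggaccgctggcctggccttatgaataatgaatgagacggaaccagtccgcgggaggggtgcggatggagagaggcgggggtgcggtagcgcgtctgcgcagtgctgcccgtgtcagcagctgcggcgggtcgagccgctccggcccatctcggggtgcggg
Bhlhe40 promoter window, chr4:143174200-143174499, plus strand: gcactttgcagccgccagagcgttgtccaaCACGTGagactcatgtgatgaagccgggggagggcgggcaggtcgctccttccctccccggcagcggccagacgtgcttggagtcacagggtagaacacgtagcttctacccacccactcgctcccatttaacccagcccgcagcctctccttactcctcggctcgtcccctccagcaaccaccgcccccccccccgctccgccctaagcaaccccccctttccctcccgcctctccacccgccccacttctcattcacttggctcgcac
Bhlhe41 promoter window, chr4:180569306-180569605, minus strand: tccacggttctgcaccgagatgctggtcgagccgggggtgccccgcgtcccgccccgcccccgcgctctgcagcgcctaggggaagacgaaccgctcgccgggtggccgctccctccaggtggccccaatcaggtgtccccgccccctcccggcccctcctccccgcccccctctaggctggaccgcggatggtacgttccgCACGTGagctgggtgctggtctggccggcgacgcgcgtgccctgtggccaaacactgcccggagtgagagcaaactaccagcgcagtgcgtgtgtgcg
Usp2 promoter window, chr8:53310620-53310919, plus strand: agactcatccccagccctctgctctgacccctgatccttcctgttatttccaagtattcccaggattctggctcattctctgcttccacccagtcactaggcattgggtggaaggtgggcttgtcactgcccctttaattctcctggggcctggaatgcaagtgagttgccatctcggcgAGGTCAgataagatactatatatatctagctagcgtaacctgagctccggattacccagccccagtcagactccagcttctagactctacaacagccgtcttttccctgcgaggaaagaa

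Depending on the array, 52.5% to 65.2% of probes were well above background and the 75th percentile lay at 171 to 411 intensity units. No spot was saturated, and precision is limited by how many arrays each age has. The probes printed above lay well above background on all 16 arrays. A level below is the log2 signal minus the 75th percentile of its array, and it is not compared between genes. Differences were tested with limma over 21442 genes, with 1 mean per age, a two-sided moderated test and Benjamini-Hochberg adjustment, and a gene passed at an adjusted p under 0.05. The arrays lay on 7 slides and were read on 3 scan days. The 2 scan sessions used below were formed here from the leading number and the year of each scan date. All 3-month arrays and 9-month replicate 2 lay on slide 1, 9-month replicates 1 and 3 and 12-month replicate 2 on slide 2, and the 18-month arrays on slide 4 with no other age. The 24-month arrays lay on slides 5, 6 and 7, also with no other age. They were read on scan day 3, again with no other age. Scan session 1 joins days 1 and 3, so scan session as a block cannot separate that day from age. In the mean correlation to the other arrays of the same age, 12-month replicate 2 (0.966), 24-month replicate 3 (0.974) and 24-month replicate 4 (0.975) were lowest. The tissue label was checked on 6 hepatocyte markers, all well above background on every array, with a summed log2 level between 11.35 and 12.16. Of these 6, 0 passed in the comparisons of 9 with 3, 12 with 9, 18 with 12, 24 with 18 and 24 with 3 months by limma, and 0, 1, 0, 2 and 0 had an unadjusted p under 0.05. In a bulk sample, fewer cells of a type and less RNA per cell cannot be told apart.

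**Figure D1:**
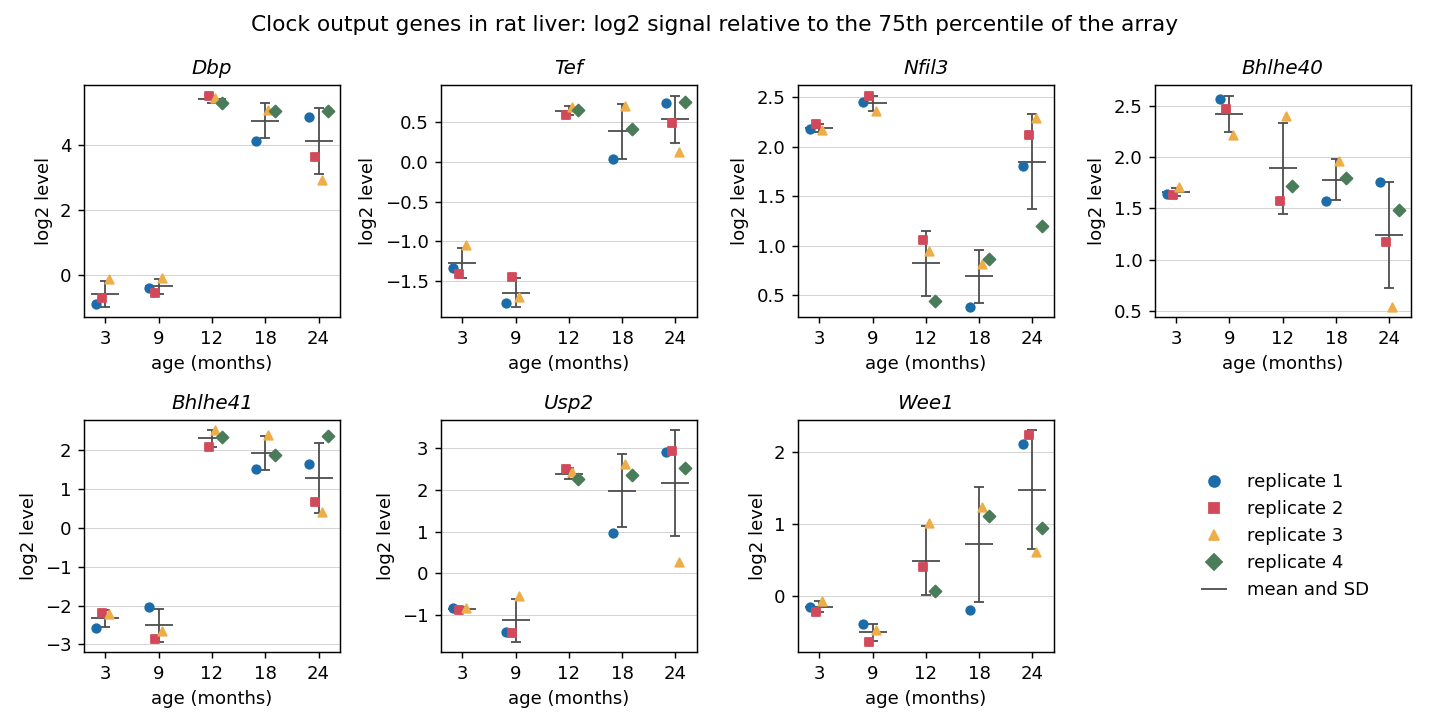
Log2 level of each of the 7 genes (y axis, log2 signal minus the 75th percentile of the array) against age in months (x axis). Each symbol is 1 array, and bars give the mean and SD of each age (n = 4 at 24 months and n = 3 at the others). Dbp, Tef, Bhlhe41 and Usp2 lie in a lower set at 3 and 9 months and a higher set from 12 months on, and Nfil3 is lower at 12 and 18 months.

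All 7 genes passed the F test for any difference between ages, against 37.5% of all genes. The adjusted p was 3.11e-06 for Dbp, 6.93e-06 for Bhlhe41, 7.39e-06 for Tef, 0.000263 for Nfil3, 0.000468 for Usp2, 0.0123 for Wee1 and 0.0249 for Bhlhe40. The difference lay between 9 and 12 months for most of them, so that step is described first.

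Between 9 and 12 months Dbp, Bhlhe41, Usp2 and Tef rose and Nfil3 fell, while the test was not passed by Wee1 and Bhlhe40. Thus 5 of 7 genes passed, 4 higher and 1 lower at 12 months, against 6.21% of all genes, 3.11% higher and 3.10% lower. The median log2 difference was 2.28 over the 7 genes and -0.01 over all genes. Rises ranged from 4.84-fold to 54.4-fold.

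Dbp, the PAR bZIP activator, had levels of -0.41, -0.55 and -0.11 on the 9-month arrays and of 5.50, 5.44 and 5.28 on the 12-month arrays. The groups were far apart and the spread within each was small, with an SD of 0.22 and 0.11. The log2 difference was 5.76 ± 0.46 (SE), 54.4-fold (adjusted p = 4.82e-05). It was the same within slide 2, where the single 12-month array stood 5.76 above the mean of 2 arrays of 9 months.

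Tef, the other PAR bZIP activator, stood at -1.77, -1.44 and -1.70 at 9 months and at 0.58, 0.69 and 0.65 at 12 months. No array of either age came near the other age. Tef was 4.84-fold higher at 12 months (log2 difference 2.28 ± 0.20 SE, adjusted p = 6.8e-05), and 2.31 higher on the log2 scale within slide 2.

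Nfil3, which represses through the same D-box, went the other way. Its levels were 2.45, 2.51 and 2.36 at 9 months and 1.06, 0.95 and 0.44 at 12 months. The 2 ages did not overlap. Nfil3 was 3.09-fold lower at 12 months (log2 difference -1.63 ± 0.25 SE, adjusted p = 0.00339), and -1.34 within slide 2.

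Bhlhe41, the E-box repressor also called Dec2, moved from -2.04, -2.85 and -2.65 at 9 months to 2.08, 2.51 and 2.33 at 12 months. All 3 older arrays lay over 4 log2 units above all 3 younger ones. The rise was 28.2-fold (4.82 ± 0.41 SE, adjusted p = 6.8e-05), with 4.42 within slide 2. Its relative Bhlhe40, or Dec1, did not share this rise. Bhlhe40 was at 2.57, 2.47 and 2.22 at 9 months and at 1.57, 2.40 and 1.72 at 12 months. The ages overlapped through 12-month replicate 3, and the log2 difference of -0.52 ± 0.27 (SE) did not pass (adjusted p = 0.269).

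Usp2, the ubiquitin protease, was at -1.41, -1.43 and -0.54 at 9 months and at 2.50, 2.42 and 2.25 at 12 months. The highest 9-month array was replicate 3, still well under the 12-month arrays. Usp2 was 11.5-fold higher (3.52 ± 0.59 SE, adjusted p = 0.0058), and 3.48 higher on the log2 scale within slide 2. The mitotic kinase gene Wee1 was at -0.40, -0.64 and -0.48 at 9 months and at 0.40, 1.02 and 0.07 at 12 months. These did not overlap, but the log2 difference of 1.0 ± 0.44 (SE) did not pass (adjusted p = 0.195), and it was 0.84 within slide 2.

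The 5 calls of this step were kept with each array left out and with slide as a fixed block for the ages of 3 to 12 months, a fit added after the data were seen. Slide 2 gives 1 array of 12 months against 2 of 9 months, so its values carry no test.

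**Figure D2:**
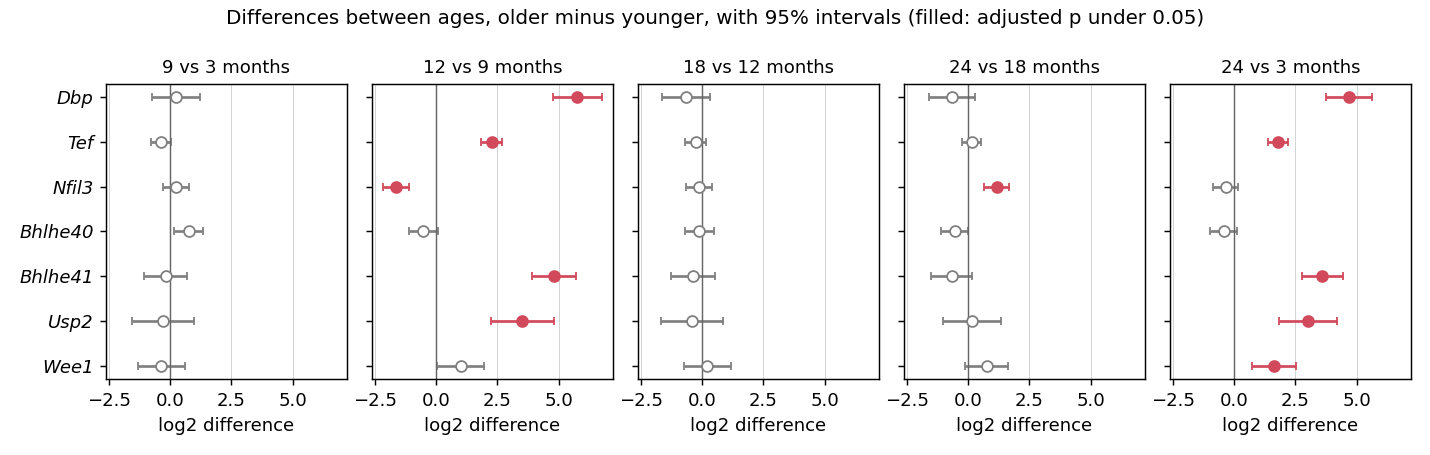
Log2 difference (x axis, older minus younger age) of each of the 7 genes (y axis) for the 4 steps and for 24 against 3 months, with its 95% interval from limma. Filled red points passed at an adjusted p under 0.05: 5 genes at 12 against 9 months, 1 at 24 against 18 months, 5 at 24 against 3 months, and 0 in both other steps.

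From 3 to 9 months 0 of the 7 genes passed by limma, against 5.19% of all genes, and 1, Bhlhe40, had an unadjusted p under 0.05. The median log2 difference was -0.18 over the 7 genes and 0.04 over all genes. Bhlhe40 had levels of 1.64, 1.63 and 1.71 at 3 months, all under the 9-month arrays. Its log2 difference was 0.76 ± 0.27 (SE, adjusted p = 0.141), with 0.81 within slide 1, where 1 array of 9 months stands against 3 of 3 months. It passed where only the 3-month and 9-month arrays were fitted (adjusted p = 0.00607) and without 12-month replicate 2 and 24-month replicates 3 and 4 (0.0288). In these 2 settings 19.2% and 15.2% of all genes passed. The intervals were wide for the others: the 95% interval of the log2 difference ran from -0.75 to 1.21 for Dbp, from -1.07 to 0.71 for Bhlhe41 and from -1.54 to 0.99 for Usp2.

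From 12 to 18 months 0 of 7 passed by limma, with 0 at an unadjusted p under 0.05, against 1.38% of all genes. The 18-month levels of Dbp were 4.13, 5.08 and 5.05, all below the 12-month arrays, with replicate 1 lowest. The log2 difference of -0.65 ± 0.46 (SE) did not pass (adjusted p = 0.445). Usp2 was at 0.97, 2.61 and 2.36, and Bhlhe41 at 1.52, 2.38 and 1.88, again lowest in replicate 1. Replicate 1 was also the lowest 18-month array for Tef (0.03, against 0.70 and 0.41), for Nfil3 (0.38, against 0.81 and 0.87), for Bhlhe40 (1.57, against 1.96 and 1.80) and for Wee1 (-0.20, against 1.24 and 1.11). Within scan session 2, which read all 18-month arrays and 12-month replicates 3 and 4, the differences between 18 and 12 months ran from -0.61 (Dbp) to 0.18 (Wee1).

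From 18 to 24 months Nfil3 rose and no other of the 7 genes passed, against 25.8% of all genes. The median log2 difference was 0.15 over the 7 genes and 0.05 over all genes. Nfil3 was at 0.38, 0.81 and 0.87 at 18 months and at 1.81, 2.12, 2.29 and 1.20 at 24 months. The lowest 24-month array, replicate 4, still lay above the 18-month arrays. Nfil3 was 2.24-fold higher (1.17 ± 0.23 SE, adjusted p = 0.0021). The call was lost with slide as a random block (adjusted p = 0.158) and with scan session as a block (log2 difference 0.79, adjusted p = 0.229). Bhlhe41 passed without 24-month replicate 4 (log2 difference -1.02, adjusted p = 0.0295), and Wee1 without 12-month replicate 2 and 24-month replicates 3 and 4 (1.47, adjusted p = 0.0139). In these 2 settings 28.8% and 35.4% of all genes passed.

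Over the whole span, 24 against 3 months, Dbp, Bhlhe41, Usp2, Tef and Wee1 were higher. These 5 of 7 genes compare with 13.3% of all genes, 4.23% higher and 9.11% lower at 24 months. The median log2 difference was 1.79 over the 7 genes and -0.04 over all genes. Nfil3 and Bhlhe40 did not pass, with log2 differences of -0.34 ± 0.23 (SE, adjusted p = 0.375) and -0.42 ± 0.25 (SE, adjusted p = 0.318).

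Dbp was at -0.89, -0.73 and -0.14 at 3 months and at 4.87, 3.62, 2.91 and 5.03 at 24 months. All 24-month arrays were higher than all 3-month arrays, but they spread over 2 log2 units, with replicate 3 lowest. The log2 difference was 4.70 ± 0.43 (SE). Bhlhe41 was at -2.58, -2.20 and -2.21 at 3 months and at 1.65, 0.67, 0.41 and 2.36 at 24 months. The order of the 24-month arrays matched that of Dbp at its upper and lower end, with replicate 4 highest and replicate 3 lowest. Its log2 difference was 3.60 ± 0.39 (SE). Tef was at -1.33, -1.41 and -1.05 against 0.74, 0.49, 0.12 and 0.75, a smaller rise with replicate 3 again lowest (1.79 ± 0.18 SE).

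Usp2 was at -0.84, -0.89 and -0.83 at 3 months and at 2.92, 2.93, 0.28 and 2.52 at 24 months. The 3-month arrays were nearly equal, and 24-month replicate 3 lay far below the other 3 arrays of its age, though above all 3-month arrays. Usp2 was 8.09-fold higher (3.02 ± 0.55 SE, adjusted p = 0.00274), and 12.5-fold higher without that array. That array also had the lowest summed log2 level of hepatocyte markers (11.35) and the highest of neutrophil markers (5.65, against 0.40 to 3.51 on the other 24-month arrays). It was also highest for macrophage and Kupffer cell, cholangiocyte, B cell and pancreatic acinar markers. The part of these in its values was not tested. With slide as a random block the call was lost (2.65 ± 0.80 SE, adjusted p = 0.138).

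Wee1 was at -0.15, -0.23 and -0.07 at 3 months and at 2.12, 2.25, 0.61 and 0.94 at 24 months. Replicates 1 and 2, which share slide 5, were higher than replicates 3 and 4, each on a slide of its own. Wee1 was 3.1-fold higher (1.63 ± 0.41 SE, adjusted p = 0.0186). This call was lost with slide as a random block (adjusted p = 0.409), with normexp background correction (0.106), where only the 2 ages were fitted (0.0554), without 3-month replicates 1, 2 or 3 (0.0622, 0.07 and 0.0553) and without 24-month replicate 1 (0.0516).

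The 3 Wee1 probes lie along the gene on chr1 of rn4. The probe used above, A_44_P487112, covers chr1:167787742-167787801. A_44_P409977 covers chr1:167779833-167779892, and A_44_P409975 spans 267 bases, chr1:167785049-167785315. The last was well above background on 14 of 16 arrays and A_44_P409977 on 13 of 16. In a fit of all kept probes, the log2 difference between 24 and 3 months was 1.63 ± 0.41 (SE, adjusted p = 0.0197), 1.62 ± 0.47 (SE, 0.0388) and 1.63 ± 0.66 (SE, 0.129) for A_44_P487112, A_44_P409975 and A_44_P409977. All 3 probes were thus higher at 24 months by nearly the same amount, and 2 of them passed. They parted at the earlier steps: between 3 and 9 months the third probe gave 1.54 ± 0.70 (SE) against -0.36 ± 0.44 (SE) and -0.63 ± 0.50 (SE), with an adjusted p of 0.266 or more, and its 9-month replicate 2 stood at -1.39 against -4.27 and -3.71.

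**Figure D3:**
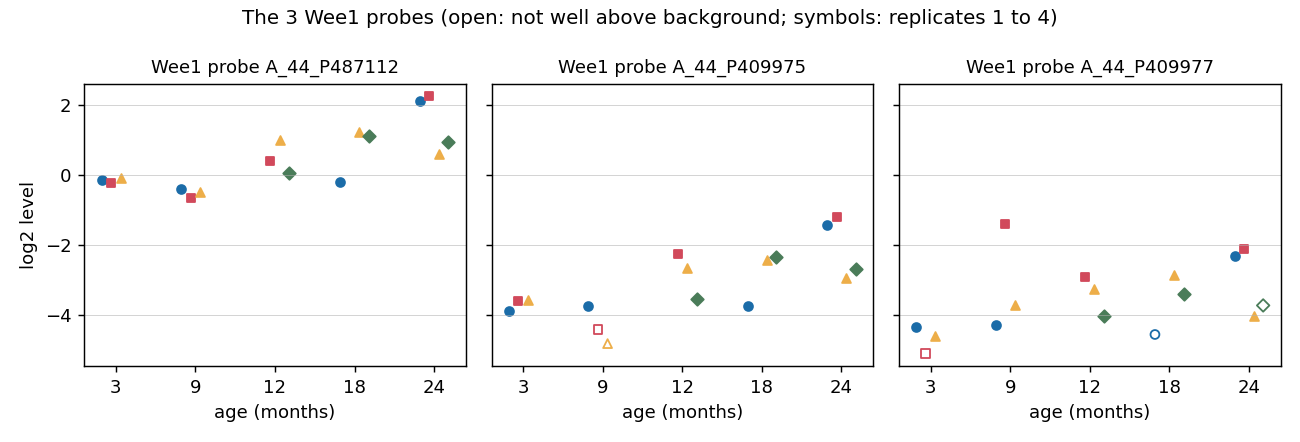
Log2 level (y axis, log2 signal minus the 75th percentile of the array) of the 3 Wee1 probes against age in months (x axis). Each symbol is 1 array, circles for replicate 1, squares for 2, triangles for 3 and diamonds for 4, and open symbols mark arrays where the probe was not well above background. In all 3 probes 24-month replicates 1 and 2 are the highest arrays of their age, and A_44_P409977 has 9-month replicate 2 at -1.39, above all other arrays.

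Set in order of their means, the ages formed 2 levels for several of the genes. For Dbp the order was 12, 18, 24, 9 and 3 months, and of these 4 neighbouring steps the one between 24 and 9 months passed (4.46, adjusted p = 7.2e-05). Bhlhe41 had the order 12, 18, 24, 3 and 9 months and passed between 24 and 3 months (3.60, adjusted p = 8.88e-05). Tef (12, 24, 18, 3 and 9 months) and Usp2 (the same order) passed between 18 and 3 months, by 1.64 (adjusted p = 0.000103) and 2.84 (0.00387). Nfil3 ran 9, 3, 24, 12 and 18 months and passed between 24 and 12 months (1.04, adjusted p = 0.00949). Bhlhe40, from 9 through 12, 18 and 3 to 24 months, and Wee1, from 24 through 18, 12 and 3 to 9 months, had no neighbouring ages that passed. The neighbours not named here differed by 0.11 to 0.76 on the log2 scale.

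Pairs of ages on the 2 sides of the step gave much the same calls. Between 12 and 3 months 5 of 7 genes passed, 4 higher and Nfil3 lower, against 10.7% of all genes. The same counts were found between 18 and 3 months, against 23.3% of all genes, and between 18 and 9 months, against 18.5%. With slide as a random block or scan session as a block, the calls of Nfil3 and Usp2 between 18 and 3 months (highest adjusted p 0.152 and 0.247) and between 18 and 9 months (0.124 and 0.212) were lost. Between 24 and 9 months 6 of 7 passed, against 16.9% of all genes, among them Wee1, 3.97-fold higher (adjusted p = 0.00549), and Bhlhe40, 2.27-fold lower (0.00673). With slide as a random block these last 2 calls were lost (adjusted p = 0.113 and 0.0534), and Nfil3 passed without 24-month replicate 3 (log2 difference -0.74, adjusted p = 0.0452). Between 24 and 12 months 1 of 7 passed, Nfil3, against 15.0% of all genes. That call was lost with normexp background correction and with either block (highest adjusted p 0.161). Dbp was 2.46-fold lower at 24 than at 12 months (adjusted p = 0.0561), and passed without 24-month replicate 1 (0.034) or 4 (0.0146), with quantile normalization (0.0476) and in the authors' deposited table of log2 values (0.0457). Other calls appeared when 1 array was left out: Bhlhe41 between 24 and 12 months without 24-month replicate 4 (adjusted p = 0.0086), Bhlhe40 between the same ages without 24-month replicate 1 (0.0445), Wee1 between 18 and 3 months and 18 and 9 months without 18-month replicate 1 (0.049 and 0.0235), and Bhlhe40 and Wee1 between 18 and 9 months without 24-month replicate 3 (0.0478 and 0.0439).

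Within the 10 arrays of 12 to 24 months the genes also varied together in part. Pearson's r was over 0.6 for 9 of the 21 pairs of genes, and the share over all pairs of genes on the array was not worked out. For Dbp and Bhlhe41 it was 0.94 (Spearman's rho 0.81), and 0.74 without the 2 arrays farthest from the median of Dbp. For Usp2 and Wee1 it was 0.62 (rho 0.79), and 0.90 without the 2 arrays farthest from the median of Usp2. Dbp and Nfil3 had r = -0.65 (rho -0.47), and 0.22 without 2 arrays, so this relation rested on those arrays. Tef and Usp2 had r = 0.85 (rho 0.62), and 0.09 without 2 arrays. Without 24-month replicate 3 alone, r fell below 0.6 for Dbp and Tef (0.55), Dbp and Usp2 (0.17) and Tef and Bhlhe41 (0.48). The other pairs over 0.6 stayed so, with rises for Nfil3 and Wee1 (0.64 to 0.90) and Usp2 and Wee1 (0.62 to 0.80). These values describe arrays that share ages, slides and sessions, and no pooled value over all 16 arrays is given for the pairs because the arrays fall into 2 sets.

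The genes most like each member were sought among 9544 genes with a symbol that lay well above background on all 16 arrays, by Pearson's r over those arrays. These r take in any step between 9 and 12 months, so r over the 10 later arrays is given beside them. Without the 2 arrays farthest from the median of the member, the later r ran from 0.04 (Usp2 and Homer1) to 0.89 (Nfil3 and Thap4). It was 0.18 for Bhlhe41 and Igdcc3, 0.29 for Bhlhe41 and Homer1 and 0.32 for Dbp and Gys2. Dbp was most like Homer1, a synaptic scaffold gene (0.964, and 0.70 over the later arrays), Herpud1, a gene of the endoplasmic reticulum stress response (0.953, 0.82), and Gys2, the liver glycogen synthase (0.947, 0.60). Herpud1 also led for Tef (0.953, 0.68) and Bhlhe41 (0.966, 0.83). Tef was next most like Rnaseh2b (0.942, 0.80) and Homer1 (0.933, 0.74), and Bhlhe41 like Homer1 (0.950, 0.62) and Igdcc3 (0.929, 0.70). Usp2 was most like Rnaseh2b, a subunit of ribonuclease H2 (0.963, 0.79), Por (0.958, 0.76) and Homer1 (0.948, 0.74). For Nfil3 the leading genes were Prkce, a protein kinase C (0.943, 0.90), Thap4 (0.924, 0.87) and Tm7sf2, a sterol reductase (0.922, 0.87). Bhlhe40 was most like Slc16a13 (0.924, 0.92), Mab21l3 (0.890, 0.86) and Gucy1b2 (0.885, 0.91). Wee1 was most like Naa60 (0.909, 0.83), Pink1, a mitochondrial kinase (0.901, 0.84), and Adh4, an alcohol dehydrogenase (0.896, 0.81).

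Core clock genes, which sit upstream of these outputs, stepped at the same age. Of 13 listed, 11 were tested, and between 9 and 12 months 6 were higher and 3 lower, with a median log2 difference of 1.27 (all genes -0.01). By adjusted p the first were Per3, at least 5.15-fold higher since it was not well above background at 9 months (2.06e-06), Nr1d2 (5.09-fold, 0.000301), Cry2 (2.41-fold, 0.00391) and Per1 (2.94-fold, 0.0058). The 3 lower genes, named after their values were seen, were Bmal1 (23.9-fold, 0.00632), Npas2 (11-fold, 0.037) and Clock (2.19-fold, 0.0282), the activators of the loop. The fold of Clock includes dim signal. On 12-month replicate 3 Clock lay at -4.76, under the lowest level among probes well above background there (-4.25). With 9-month replicate 1, 2 or 3 or 12-month replicate 3 or 4 left out, 1 lower gene passed, and with normexp background correction 2 higher and 2 lower ones did. Between 3 and 24 months 6 were higher and 2 lower, with a median of 0.74 (all genes -0.04). Per3 was at least 5.43-fold higher (5.78e-07), Per2 9.25-fold higher (0.000385) and Bmal1 10.3-fold lower (0.008). Npas2 was 60.5-fold lower in the fit (0.000477), a value that includes 2 of 4 arrays at 24 months where it was not well above background. Without 3-month replicate 1 or 2, 2 higher genes passed, and with slide as a random block 1 higher and 0 lower. Nr1d2 was 2.29-fold lower at 9 than at 3 months (adjusted p = 0.0112), a call lost without 3-month replicate 3 or 9-month replicate 1 and with normexp background correction. From 12 to 18 and from 18 to 24 months 0 of 11 passed by limma, with 1 and 2 at an unadjusted p under 0.05. Of all genes, 3.11% were higher and 3.10% lower at 12 than at 9 months, and 4.23% and 9.11% at 24 than at 3 months. The share called was 5.19% from 3 to 9, 1.38% from 12 to 18 and 25.8% from 18 to 24 months.

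**Figure D4:**
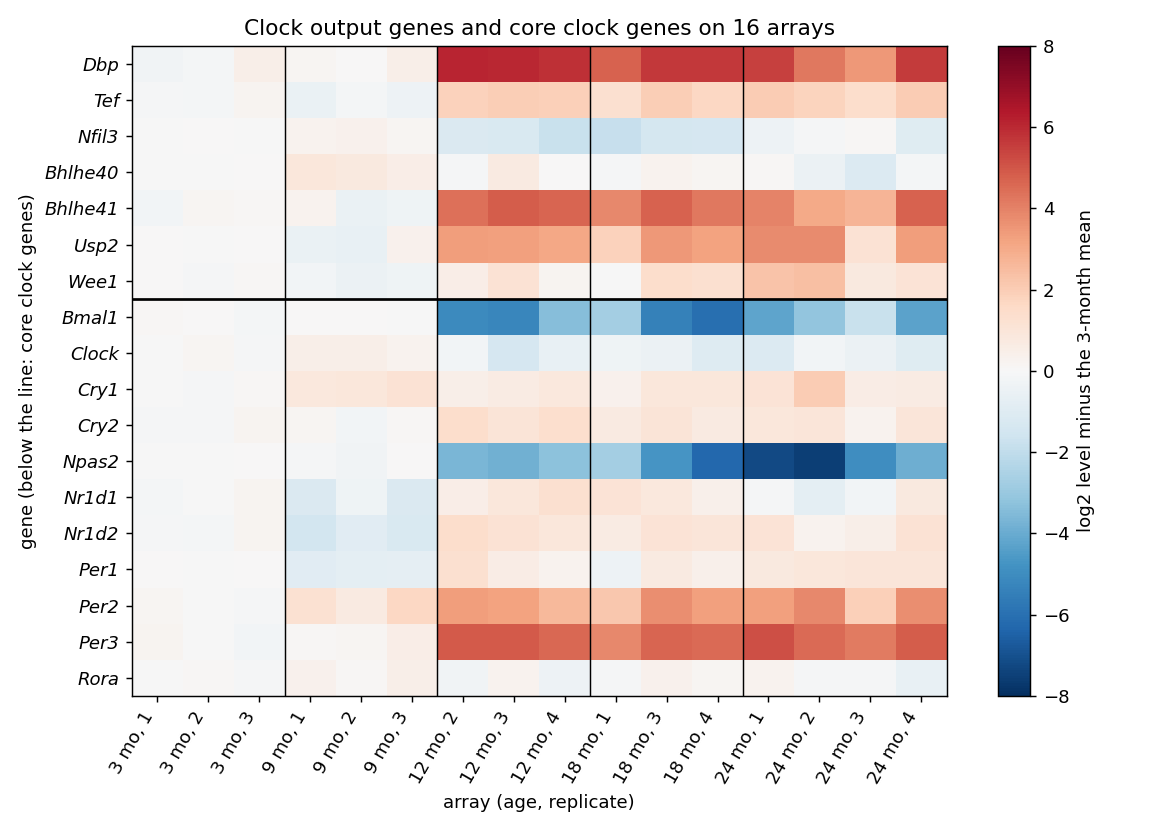
Log2 level of the 7 genes (above the line) and of 11 core clock genes (below it) on each of 16 arrays (columns, by age and replicate), minus the gene's 3-month mean, from blue (lower) to red (higher). Dbp, Bhlhe41, Usp2 and Per3 turn red and Bmal1 and Npas2 turn blue at 12 months and stay so, and Per2, already 0.73 to 1.65 up at 9 months, is 1.93 to 3.87 up from 12 months on. Per3 was not well above background at 3 and 9 months, nor Npas2 on 2 arrays of 24 months. Npas2 on 18-month replicate 4 also lay under the lowest level among probes well above background. So did Clock on 12-month replicate 3 and on 24-month replicates 1 and 4. All these cells mark dim signal.

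Genes regulated by PAR bZIP factors in liver, with their partner Hlf, were taken from general knowledge; 9 of 11 were tested. At 12 months 2 were higher than at 9 months: Cyp7a1, the rate-limiting enzyme of bile acid synthesis (10.7-fold, adjusted p = 0.00301), and Por, which passes electrons to cytochrome P450 enzymes (3.63-fold, 0.0123). The median of the 9 was -0.21 against -0.01 over all genes. The call of Por was lost without 9-month replicate 1 and with normexp background correction. At 24 against 3 months Por (3.75-fold, 0.00275), Alas1, the first enzyme of heme synthesis (3.43-fold, 0.00662), and Cyp7a1 (3.69-fold, 0.0175) were higher and the median was 0.02; the call of Cyp7a1 was lost without 3-month replicate 1, 2 or 3, and all 3 calls with normexp background correction or slide as a random block. Between 3 and 9 months Alas1 was 2.85-fold higher (0.0437) and Cyp7a1 4.76-fold lower (0.0186). Both of these calls were lost without 3-month replicate 1, 2 or 3, without 9-month replicate 1 or 2, and with normexp background correction. In both later steps 0 of 9 passed by limma, with 3 and 2 at an unadjusted p under 0.05. Among all genes 3.11% were higher at 12 than at 9 months and 4.23% at 24 than at 3 months. The share called was 5.19% from 3 to 9 months, and 1.38% and 25.8% in the later steps.

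Mitotic entry genes, which WEE1 acts against, were read beside Wee1. Of 12 tested, 6 were lower at 24 than at 3 months (median log2 difference -1.43, all genes -0.04), led by Ccna2 (3.79-fold, adjusted p = 0.00645), Plk1 (3.08-fold, 0.00653), Cdk1 (3.85-fold, 0.0103) and Top2a (4.24-fold, 0.0235). This count was 3 without 3-month replicate 1, 2 or 3 or 24-month replicate 1, 8 without 24-month replicate 2, and 0 with slide as a random block. Between 9 and 12 months 4 were lower (median -0.87): Cdk1 (4.35-fold, 0.0202), Top2a (5.2-fold, 0.0323), Ccna2 (3.25-fold, 0.0346) and Plk1 (2.52-fold, 0.0452). It was 0 without 9-month replicate 1, 2 or 3 or 12-month replicate 4, and with normexp background correction. Between 3 and 9 and between 12 and 18 months 0 passed by limma, with 5 and 2 at an unadjusted p under 0.05, respectively. Between 18 and 24 months the median log2 difference was 0.88 (all genes 0.05), and 7 of 12 had an unadjusted p under 0.05, of which Cdc25a alone passed, at least 1.41-fold lower (adjusted p = 0.0254). That call was lost without 18-month replicate 1, 3 or 4 or 24-month replicate 2 or 3. As higher, 0 passed at this step in the main processing and 4 without 24-month replicate 1.

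Proteins reported as substrates of USP2 were measured as 8 genes. At 24 against 3 months 2 were higher, Cry1 (2.15-fold, adjusted p = 0.0194) and Per1 (1.87-fold, 0.0255), and 2 lower, Bmal1 and the kinase gene Aurka (1.76-fold, 0.0421). Without 3-month replicate 1, 2 or 3, both higher calls and that of Aurka were lost. The call of Aurka was also lost without 9-month replicate 1 or 2, any 1 of the 18-month arrays or 24-month replicate 1, 3 or 4, and that of Bmal1 with slide as a random block. Between 9 and 12 months Per1 was higher and Bmal1 lower. In the other 3 steps 0 passed by limma, with 3, 0 and 1 at an unadjusted p under 0.05. Of 11 tested regulators of the clock proteins, such as the casein kinases, 0 passed between 3 and 9, 9 and 12, or 3 and 24 months, with 1, 2 and 1 at an unadjusted p under 0.05; Bmal2 was 1.82-fold higher at 18 than at 12 months (0.0335) and 2.99-fold lower at 24 than at 18 months (2.03e-05), and Csnk2a1 was 1.41-fold lower at 24 than at 18 months (0.0336). The first of these calls was lost without 3-month replicate 2, 12-month replicate 2 or any 1 of the 18-month arrays, and that of Csnk2a1 without any 1 of the 18-month arrays or 24-month replicate 3 or 4. Both calls of Bmal2 were lost with normexp background correction and with the mean of its probes. The 2 of 11 regulators called between 18 and 24 months compare with 25.8% of all genes. Between 12 and 18 months that share was 1.38%. Among all genes 3.11% were higher and 3.10% lower at 12 than at 9 months, and 4.23% and 9.11% at 24 than at 3 months.

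Several of the 7 genes also respond to glucocorticoid, oxygen, feeding or temperature, so lists of such genes were read at the same ages. At 12 against 9 months 5 of 13 glucocorticoid targets were higher and 1 lower, led by Fkbp5 (2.38-fold, adjusted p = 0.00753), while 5 had been lower at 9 than at 3 months, led by Fkbp5 (2.91-fold, 0.00175) and Zbtb16 (8.49-fold, 0.00438). At 24 against 3 months 3 of the 13 were lower. The 5 higher at 12 months were 1 without 9-month replicate 2 or 3 or 12-month replicate 2 or 4, and 0 with normexp background correction; the 1 lower was 0 without 9-month replicate 1, 2 or 3 or 12-month replicate 4. Without 3-month replicate 1, 2 or 3, the 5 lower at 9 months were 2 and the 3 lower at 24 months were 1, and the former were also 2 without 9-month replicate 2 or 3. Of 20 genes of feeding and fasting, 4 were higher and 2 lower at 12 than at 9 months, among them Igfbp1 (8.86-fold higher, 0.00144), and 1 was higher and 4 lower at 9 than at 3 months. Igfbp1 was among those lower at 9 months (log2 difference -4.25), and its rise at 12 months (3.15) was smaller than that fall. At 24 against 3 months 2 of the 20 genes were lower. The 4 higher at 12 months were 2 without 9-month replicate 2 or 3 or 12-month replicate 2 or 4, and the 2 lower were 0 without 9-month replicate 1 and up to 5 with another array left out. At 9 against 3 months the 1 higher was 0 without 3-month replicate 1 or 9-month replicate 3, and up to 4 with another array left out, and the 4 lower were 1 without 3-month or 9-month replicate 3. At 24 against 3 months the 2 lower ran from 1 to 4 with 1 array left out. Of 15 hypoxia targets tested, 1 was higher at 12 than at 9 months, Ankrd37 (2.95-fold, 0.00753), and 2 were higher and 2 lower at 24 than at 3 months, each 1 without 3-month replicate 1, 2 or 3. At 9 against 3 months 2 of the hypoxia targets were higher and 1 lower. The 2 higher were 0 without 3-month replicate 1, 2 or 3 or 9-month replicate 2 or 3. Of 8 genes that follow body temperature, 0 passed at 12 against 9 months by limma, with 2 at an unadjusted p under 0.05, and 2 were higher at 24 than at 3 months. The latter count was 0 without 3-month replicate 1, 2 or 3, 9-month replicate 1 or 2, 18-month replicate 3 or 24-month replicate 1 or 2. Between 18 and 24 months 1 glucocorticoid target, 1 feeding and fasting gene and 1 body temperature gene were higher, and 2 hypoxia targets lower. That step called 25.8% of all genes. At 9 against 3 months 5.19% passed. At 12 against 9 months 3.11% were higher and 3.10% lower, and at 24 against 3 months 4.23% and 9.11%. The 2 of 20 feeding and fasting genes lower at 24 months lie near that last share. The part of glucocorticoid, oxygen, feeding and temperature signals in the values of the 7 genes was not tested.

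Markers of other cell types were read at the same ages, since a bulk liver sample holds them too. Of 10 T and NK cell markers, 6 were lower at 9 than at 3 months, 2 higher at 12 than at 9 months, 9 higher at 24 than at 18 months, and 5 higher and 1 lower at 24 than at 3 months. Their summed log2 level ran from 4.14 to 4.35 at 3 months, 2.46 to 2.58 at 9, 2.62 to 3.55 at 12, 2.30 to 2.44 at 18 and 3.87 to 5.18 at 24 months. The rise of Nfil3 between 18 and 24 months came with this rise, at a step where 25.8% of all genes passed. There 3 of 7 macrophage and Kupffer cell, 3 of 4 cholangiocyte, 1 endothelial, 1 stellate cell and 1 pancreatic acinar marker were higher. Lower were 1 stellate cell, 1 neutrophil, 1 B cell and 2 pancreatic acinar markers. From 3 to 9 months, where 6 T and NK cell markers were lower, Nfil3 did not pass (log2 difference 0.25 ± 0.25 SE). The part of these cells in the values of Nfil3 was not tested. Of 7 macrophage and Kupffer cell markers 0 passed at 12 against 9 months by limma, with 0 at an unadjusted p under 0.05, and 4 were higher at 24 than at 3 months, with a summed log2 level of 7.08 to 7.16 at 3 and 7.22 to 7.62 at 24 months. At 12 against 9 months 1 of 6 stellate cell and 1 of 4 cholangiocyte markers were lower. At the same step 0 of 4 neutrophil, 0 of 5 endothelial, 0 of 2 B cell and 0 of 3 pancreatic acinar markers passed by limma, with 0 in each list at an unadjusted p under 0.05. At 24 against 3 months 2 stellate cell and 2 neutrophil markers were lower, 1 cholangiocyte marker was higher, and endothelial and pancreatic acinar markers each had 1 higher and 1 lower. Among all genes 5.19% passed at 9 against 3 months, 6.21% at 12 against 9 and 13.3% at 24 against 3 months.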

How the data were processed

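Per the file headers, the authors extracted the deposited scanner files with Agilent software (Feature Extraction 10.7.3.1), and the processed signal is an intensity, not normalized between arrays. The deposited series table of the authors holds log2 values whose normalization is not given in the sources used here, and it was used as an alternative. From each log2 processed signal the array's 75th percentile was subtracted. Outlier-flagged spots were treated as missing. Probes had to be well above background on every array of 1 age or more (25697 of 41012), and the probe with the highest mean stood for its gene. A gene below background at 1 age has a fold that is a lower bound, taken against the lowest level among probes well above background. Symbols were updated through RefSeq of GRCr8: 18507 probes by accession, 2900 by symbol, 386 by an older symbol, and 19219 kept the name given.

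Groups follow the stated age. Tests used limma 3.58.1 in R 4.3.3 with version 1.17.8 of data.table, and the procedure was tested on simulated data. Python 3.11.15, with pandas 2.3.3 and matplotlib 3.10.9, made the figures. The 7 genes and the lists were chosen with earlier results of these data known. Named from a list are up to 4 genes that passed with the smallest adjusted p, and for each of the 7 genes the 3 with the highest Pearson's r. As alternatives, arrays were left out, signals were quantile normalized or corrected with normexp (offset 50) or read from the authors' table, probes were filtered on all 16 arrays or not filtered, probes were averaged or taken singly, a 2-fold minimum was set, only the compared ages were fitted, and slide, scan session or replicate number was a block.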

Additional observations from a re-analysis of the deposited data

Results flagged for a closer look

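Usp2 on 24-month replicate 3 stood apart from its age. Its log2 level was 0.28, against 2.92, 2.93 and 2.52 on the other 24-month arrays, and the gap to the nearest of them was 0.846 of the whole range, above Dixon's 95% critical value for 4 samples. The other 6 genes did not exceed that value at 24 months, and the ages with 3 arrays were not examined. Chance exceeds that value in about 1 of 20 groups. The same array was the lowest of its age for Dbp, Tef, Bhlhe40, Bhlhe41 and Wee1 and the highest for Nfil3. It also had the lowest summed log2 level of 6 hepatocyte markers of all 16 arrays (11.35, against 11.71 to 12.00 on the other 24-month arrays) and the highest of 4 neutrophil markers (5.65, against 0.40 to 3.51). Of all 16 arrays it was also highest for macrophage and Kupffer cell (7.62), cholangiocyte (1.79), B cell (-2.00) and pancreatic acinar (1.64) markers. For T and NK cell (5.13), endothelial (6.13) and stellate cell (4.42) markers other arrays were higher. The part of these in the Usp2 value was not tested.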

How the results depend on the processing

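The calls of Dbp, Tef and Bhlhe41 at 24 against 3 months and of all 5 genes at 12 against 9 months were kept under every alternative that was run. With slide as a random block (correlation 0.687) 3 genes passed at 24 against 3 months and 0 at 24 against 18 months, and with scan session as a block 0 passed at 24 against 18 months. For 9 against 3 months 1 passed with the compared ages alone and 1 without 12-month replicate 2 and 24-month replicates 3 and 4, which gave 2 at 24 against 18 months. With each array left out, 4 to 5 genes passed at 24 against 3 months, 5 at 12 against 9, 0 at 9 against 3 and at 18 against 12, 1 to 2 at 24 against 18 months (2 without 24-month replicate 4), and 6 to 7 in the F test. With normexp background correction 5 passed the F test.

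Samples of different ages share replicate numbers, but the data do not pair them: over pairs of arrays of different ages, deviations from the age mean had a median correlation of -0.09 for the same number and 0.03 for different numbers, and 0 of 16 arrays correlated best with their own number. With replicate number as a block, 5 genes passed at 24 against 3 months, 5 at 12 against 9, 1 at 24 against 18, 0 in the other steps and 6 in the F test.

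Some differences that did not pass changed sign. With the mean of the Wee1 probes, Wee1 gave 0.19 at 9 against 3 months and 0.00 at 18 against 12. At 18 against 12 months Bhlhe40 gave 0.04 with normexp, and with 1 array left out Bhlhe40 ran from -0.28 to 0.14, Nfil3 from -0.32 to 0.03, Usp2 from -0.72 to 0.09 and Wee1 from -0.04 to 0.68. At 24 against 18 months Usp2 gave -0.01 with slide as a random block, and with 1 array left out it ran from -0.32 to 0.81 and Tef from -0.03 to 0.31. Of list genes that had passed, 4 changed sign: Bmal2 at 18 against 12 months (-0.56, mean of probes), and at 24 against 18 months Cdc25a (0.11, normexp), Csnk2a1 (0.15) and Igfbp1 (-0.41), both with scan session as a block. The cause was not tested.

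The number of all genes called moved more than the calls of the 7. It ran from 310 (slide as a random block) to 5107 at 24 against 3 months (2860 in the main processing), from 340 (normexp) to 4125 at 9 against 3 (1112), from 166 (normexp) to 6575 (slide as a fixed block) at 12 against 9 (1331), from 0 (slide as a random block) to 724 at 18 against 12 (295), and from 969 (normexp) to 7582 at 24 against 18 months (5526). With normexp the share of calls that were higher in the older age went from 38.2% to 23.5% at 9 against 3 months, from 50% to 38.6% at 12 against 9 and from 78% to 100% at 18 against 12. Signal over background limits Per3, Npas2, Clock and both dim Wee1 probes.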
